A study of Gallus gallus with 19 samples.

Results

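The levels of 10 transcription factor genes that specify the neural plate border (NPB) were followed in RNA from the NPB domains of chicken embryos in which Nanog, PouV (the gene POU5F3, the chicken counterpart of Oct4) or Klf4 had been knocked down. The genes were PAX7, PAX3, MSX1, MSX2, TFAP2A, TFAP2C, ZIC1, ZIC2, DLX5 and GBX2, a list chosen by role in the border and looked up by symbol. All 10 were found, and all 10 were among the 18996 genes tested. The embryos were wild type. A translation blocking morpholino (MO), a synthetic antisense oligomer that is meant to stop protein synthesis from its mRNA, was electroporated at stage HH4 (gastrula) on the experimental side, and a control MO on the contralateral side of the same embryo. The sides were collected separately at HH7/HH8-, when the neural folds form. Nanog MO was sampled 4 times, PouV MO 3 times and Klf4 MO 4 times, and the 8 samples of control MO came from the Nanog (4), PouV (2) and Klf4 (2) experiments. For 8 samples of each side, equal numbers in the labels were taken to mark sides of the same embryos, and they are called so below. These were Nanog 1 to 4, PouV 1 and 3, and Klf4 1 and 3. The sample titles give the number only, so the pairing is an assumption. PouV MO replicate 4 and Klf4 MO replicates 2 and 4 had no partner. The labels give the tissue as midbrain and the cell type as neural crest, whereas the study's methods describe dissected dorsal neural folds. Each sample was a pool of embryos, of 3 by the series' description and of more by the study's text, so the spread between samples is a spread between pools.

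The NPB is the strip of ectoderm between the neural plate and the future epidermis, from which the neural crest, the dorsal neural tube and, in the head, the placodes arise. BMP, Wnt and FGF signals switch on a set of border transcription factors there, and these in turn switch on crest genes such as SNAI2, FOXD3 and SOX9 or placode genes such as EYA2. The border factors differ in where they are found. TFAP2A, TFAP2C, DLX5, MSX1 and MSX2 extend into the non-neural ectoderm, ZIC1 and ZIC2 into the neural plate, and PAX7 and PAX3 are concentrated in the border itself and in the early crest. GBX2 is best known for setting the position of the midbrain-hindbrain boundary, and in frogs it also acts in border formation.

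Total counts per sample ranged from 31215191 to 44726348, and the member with the fewest reads, ZIC1 in Klf4 MO replicate 3, still had 124. Levels are given as CPM, read counts scaled to the library size after TMM, a normalization that evens out differences in composition between libraries. CPM are not corrected for gene length, so levels are compared between samples of a gene, not between genes. The mRNAs of the targeted genes gave no check of the labels, since the MOs act on translation: edgeR's adjusted p was 0.997 for NANOG after Nanog MO (log2 fold change -0.30), 0.13 for POU5F3 after PouV MO (0.50) and 0.956 for KLF4 after Klf4 MO (0.34). Markers of neighbouring tissues were present in every group. The summed level of 10 endoderm genes was 368 to 936 CPM after Nanog MO, 497 to 915 after PouV MO, 902 to 1520 after Klf4 MO and 193 to 1243 in the controls, and that of 12 mesoderm genes was 412 to 604 CPM after Nanog MO, 485 to 689 after PouV MO, 547 to 642 after Klf4 MO and 345 to 640 in the controls. These control ranges pool the 3 experiments. The endoderm sum was 193 to 819 CPM in the Nanog, 517 and 531 in the PouV and 802 and 1243 in the Klf4 controls. The mesoderm sum was 345 to 577 CPM in the Nanog, 404 and 478 in the PouV and 498 and 640 in the Klf4 controls. No endoderm or mesoderm gene of these lists was at 0 in any sample. In bulk RNA, fewer cells of a type and less RNA per cell cannot be told apart.

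The first question was whether each knockdown differed from all 8 control MO samples. In this comparison no border gene was called after any of the 3 knockdowns. TFAP2A, which acts early in the border, had the lowest p: it was at 93.6, 118, 72.5 and 107 CPM in the Nanog MO samples, against 83.8 to 179 CPM (median 145) in the 8 controls. The Nanog MO samples lay in the lower part of the control range and 1 of them lay below it. The log2 fold change was -0.51 (standard error 0.16), with an adjusted p of 0.446 by edgeR's quasi-likelihood test. ZIC2 after Nanog MO followed, with a log2 fold change of -0.37 (standard error 0.14, edgeR adjusted p = 0.625), and ZIC1 after PouV MO had -0.77 (standard error 0.39, edgeR adjusted p = 0.339). That value of ZIC1 was -1.16 without Klf4 control replicate 3, -0.47 without Nanog control replicate 2 and -0.42 with the replicate block, and was not called in any of these. The replicate block sets PouV MO against the control sides of its own pairs and not against all controls.

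Across the 10 genes the fitted change after Nanog MO was above 0 for 2 genes and below 0 for 8, beside 50.9% of all genes above 0, and its median was -0.23 on the log2 scale, beside 0.0036 for all genes tested. After PouV MO it was above 0 for 5 genes (49.9% of all genes) with a median of -0.053, and after Klf4 MO for 5 genes (49.8%) with a median of -0.0083. At an unadjusted p under 0.05 there were 2 border genes after Nanog MO (TFAP2A and ZIC2, both lower), 0 after PouV MO and 0 after Klf4 MO, beside 5.82% of all genes after Nanog MO, 15.7% after PouV MO and 6% after Klf4 MO. DESeq2 also called 0 border genes in each knockdown, among 113 genes called in all after Nanog MO, 506 after PouV MO and 78 after Klf4 MO. The share of all genes called with edgeR was 0.258% after Nanog MO (0% lower), 0.663% after PouV MO and 0.0158% after Klf4 MO, so a list of 10 would rarely hold a called gene. No border gene had every sample of a knockdown above or below all 8 controls. Of all genes, 0.479% lay above and 0.153% below after Nanog MO, 1.06% and 0.848% after PouV MO, and 1.33% and 1.37% after Klf4 MO. Without Klf4 control replicate 3, the Klf4 comparison called ZIC1 (-1.58, edgeR adjusted p = 0.0353) and DLX5 (-0.88, edgeR adjusted p = 0.0446), together with 756 genes in all.

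**Figure D1:**
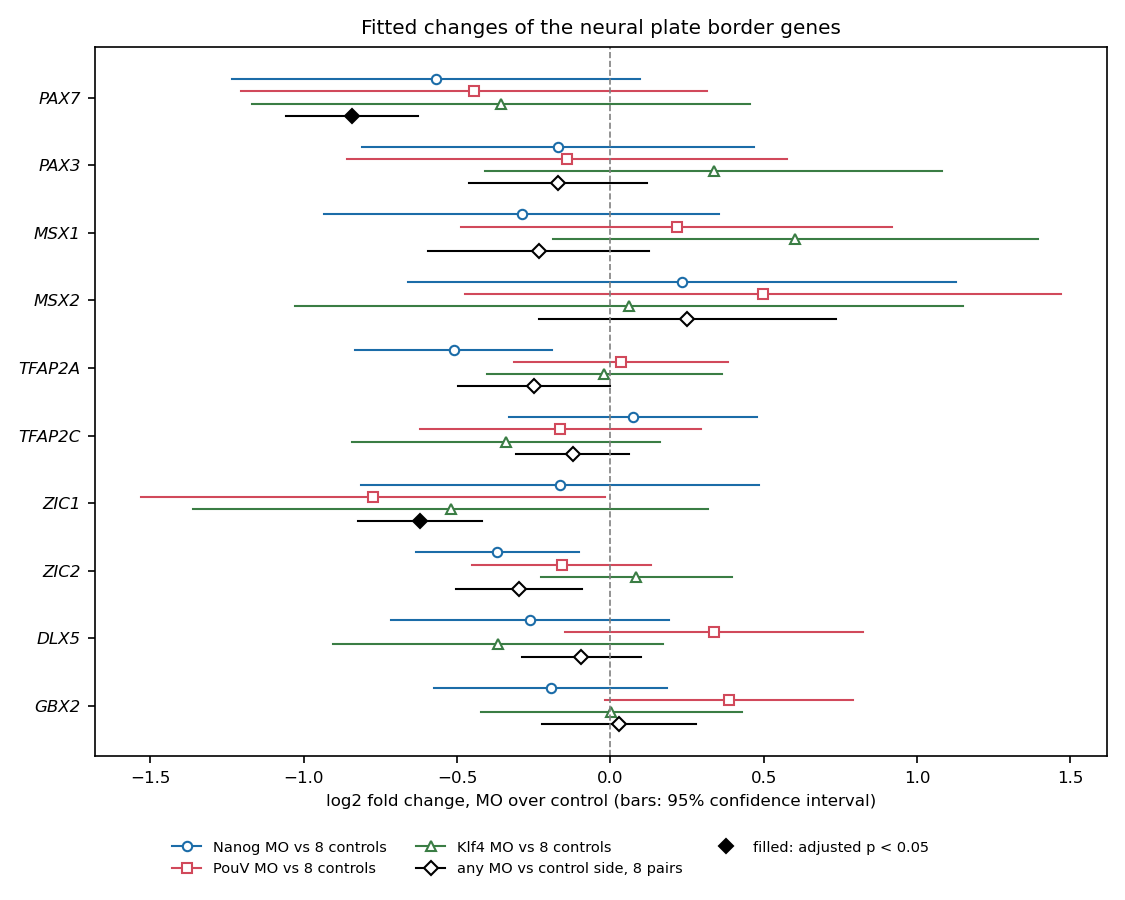
Fitted log2 fold changes (horizontal axis, MO over control) of the 10 border genes, with approximate 95% intervals as bars. The bars use the standard error and a normal quantile, so they are narrower than intervals from the quasi-likelihood test would be. A bar clear of 0 is therefore not a call. Coloured symbols compare each knockdown with all 8 controls and black diamonds compare the sides of the embryos over 8 pairs. The filled symbols, PAX7 at -0.84 and ZIC1 at -0.62 in the pairs, had an adjusted p under 0.05.

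The control levels themselves differed between the experiments. ZIC1 was at 30.8, 31.6, 28.1 and 31.2 CPM in the Nanog controls, at 14.9 and 15.99 CPM in the PouV controls and at 6.75 and 3.82 CPM in the Klf4 controls. These 3 sets did not overlap, and their order was Nanog above PouV above Klf4. PAX7 had the same order, at 21.3 to 42.6 CPM in the Nanog controls, 14.4 and 16.6 CPM in the PouV controls and 11.3 and 12.1 CPM in the Klf4 controls. TFAP2A also had sets without overlap, but in another order. It was at 179 and 170 CPM in the PouV controls, 118 to 165 CPM in the Nanog controls and 106 and 83.8 CPM in the Klf4 controls. ZIC2 was at 279 to 411 CPM in the Nanog controls and at 186 and 201 CPM in the Klf4 controls. MSX1 was at 77.7 to 107 CPM in the Nanog controls and at 34.6 and 35.9 CPM in the Klf4 controls, while the PouV controls, at 37.2 and 115 CPM, spanned nearly the whole range. TFAP2C was lowest in the Klf4 controls (24.0 and 22.5 CPM, against 36.3 to 64.4 CPM in the other 6). For PAX3, MSX2, DLX5 and GBX2 the Nanog and Klf4 controls overlapped. The experiment is therefore part of the spread of the 8 controls. The day or batch behind it was not given in the sources used here. How many of all genes had control sets without overlap was not counted. The separation is thus not shown to be particular to border genes.

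**Figure D2:**
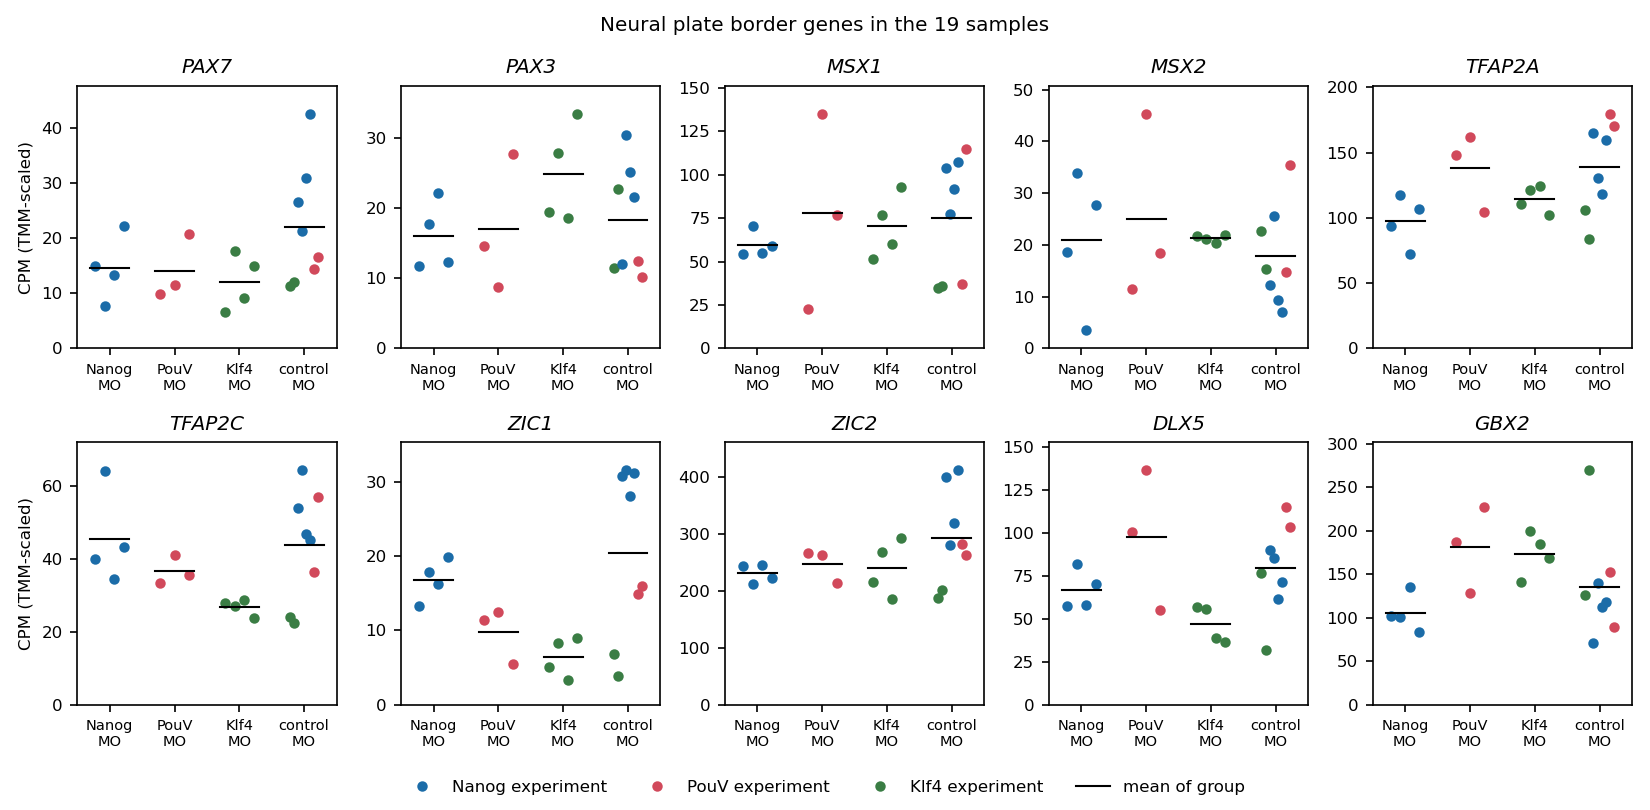
CPM of each border gene (vertical axis, linear from 0, own scale per panel) in the 19 samples, 1 point each, coloured by experiment, with the group mean as a line. ZIC1 in the controls separates by experiment, with means of 30.4 CPM in the Nanog, 15.5 in the PouV and 5.28 in the Klf4 controls.

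The second question was whether the MO side differed from the control side of the same embryos. Over the 8 pairs 2 of the 10 border genes were called, PAX7 and ZIC1, and both were lower on the MO side. In that comparison 1.52% of all 18857 genes were called, and 0.806% were called lower. PAX7 and ZIC1 were also the border genes that were lower on the MO side in 8 of 8 pairs, which was true of 2.54% of all genes.

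PAX7 marks the border and is needed for crest formation in the chick. It was at 14.96, 7.72, 13.2 and 22.3 CPM on the Nanog MO sides 1 to 4, against 26.6, 21.3, 31.02 and 42.6 CPM on their control sides. It was at 9.86 and 11.4 CPM on the PouV MO sides 1 and 3, against 14.4 and 16.6 CPM on the control sides, and at 6.66 and 9.05 CPM on the Klf4 MO sides 1 and 3, against 11.3 and 12.1 CPM. Every MO side was lower than its partner, and the log2 difference ran from -0.41 in a Klf4 pair to -1.46 in a Nanog pair. The fitted log2 fold change was -0.84 (standard error 0.11), with an edgeR adjusted p of 0.00396. The samples without a partner lay on the other side. PouV MO replicate 4 had 20.7 CPM of PAX7 and Klf4 MO replicates 2 and 4 had 17.7 and 14.96 CPM, each above both controls of its experiment.

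ZIC1, a zinc finger factor that acts with PAX3 in frogs to switch on crest genes, was at 13.3, 17.9, 16.2 and 19.97 CPM on the Nanog MO sides, against 30.8, 31.6, 28.1 and 31.2 CPM on their control sides. It was at 11.5 and 12.4 CPM on the PouV MO sides 1 and 3, against 14.9 and 15.99 CPM, and at 5.06 and 3.32 CPM on the Klf4 MO sides 1 and 3, against 6.75 and 3.82 CPM. The sides did not overlap in the Nanog and PouV experiments, while the Klf4 sides did. The fitted log2 fold change was -0.62 (standard error 0.10, edgeR adjusted p = 0.0131), and the differences ran from -0.20 in a Klf4 pair to -1.21 in a Nanog pair. Of the samples without a partner, PouV MO replicate 4 had 5.42 CPM, below both PouV controls, and Klf4 MO replicates 2 and 4 had 8.26 and 9.01 CPM, above both Klf4 controls. Without the sides of Nanog replicate 2, ZIC1 had an edgeR adjusted p of 0.0546, while PAX7 stayed at 0.0154.

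**Figure D3:**
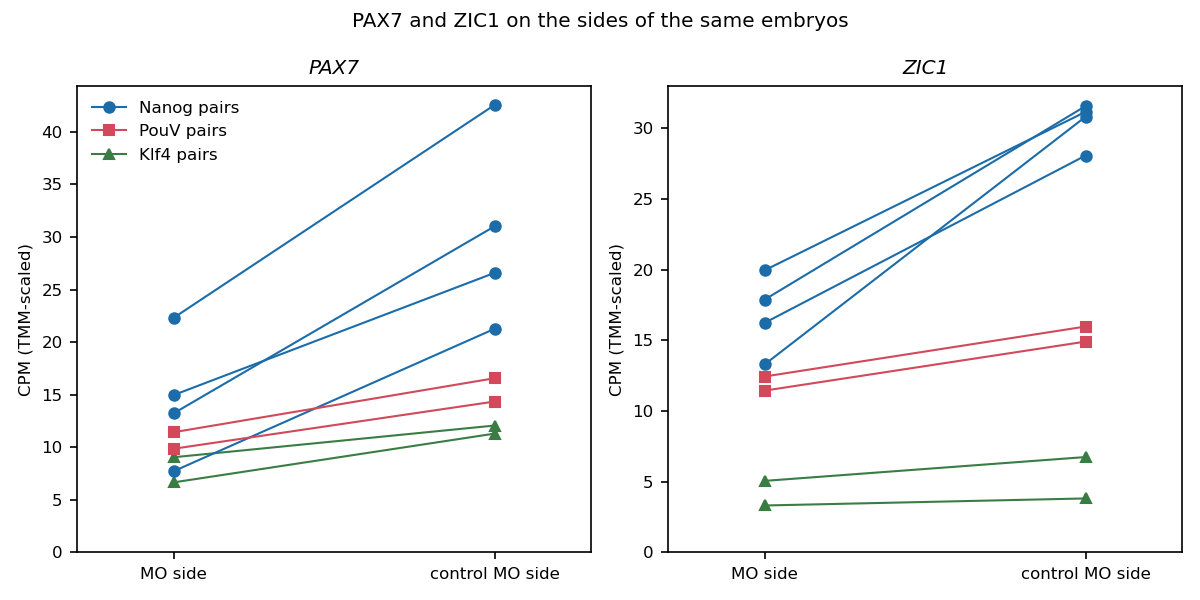
CPM of PAX7 and ZIC1 (vertical axes, linear from 0) on the MO side and the control MO side of the same embryos, 1 line per pair, coloured by experiment. All 8 lines of each gene are higher on the control side, and the Nanog lines start from the highest control levels, 21.3 to 42.6 CPM for PAX7 and 28.1 to 31.6 CPM for ZIC1.

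The other 8 border genes were not called over the 8 pairs. ZIC2, a paralog of ZIC1 with a broader domain in the neural plate, came closest, with a log2 fold change of -0.30 (standard error 0.10, unadjusted p = 0.0136, edgeR adjusted p = 0.194). It was at 243, 211, 244 and 222 CPM on the Nanog MO sides, against 399, 279, 318 and 411 CPM on their control sides, without overlap. On the PouV MO sides it was at 266 and 263 CPM, against 282 and 262 CPM, and on the Klf4 MO sides at 215 and 186 CPM, against 186 and 201 CPM. The log2 difference of ZIC2 in the PouV and Klf4 pairs lay between -0.12 and 0.20.

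TFAP2A had a log2 fold change of -0.25 (standard error 0.13, edgeR adjusted p = 0.372) over the pairs. It was at 93.6, 118, 72.5 and 107 CPM on the Nanog MO sides, against 165, 130, 118 and 160 CPM. On the Klf4 MO sides 1 and 3 it was at 110 and 125 CPM, against 106 and 83.8 CPM. TFAP2A was thus lower on the MO side in all 4 Nanog pairs and both PouV pairs, and higher in both Klf4 pairs. TFAP2C, a second AP-2 factor of the border and the epidermis, had -0.12 (edgeR adjusted p = 0.572) and the same signs, although in Nanog pair 2 its sides were nearly equal, at 64.3 CPM on the MO side and 64.4 CPM on the control side.

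MSX1 and MSX2 are homeobox genes switched on by BMP signals. MSX1 was at 54.4, 70.5, 55.1 and 59.0 CPM on the Nanog MO sides, against 104, 77.7, 91.6 and 107 CPM. On the Klf4 MO sides 1 and 3 it was at 51.6 and 59.9 CPM, against 34.6 and 35.9 CPM. MSX1 was lower without overlap in the Nanog experiment and higher without overlap in the Klf4 experiment, where replicates 2 and 4, at 76.7 and 92.7 CPM, were also above the controls. Its log2 fold change over the 8 pairs was -0.23 (standard error 0.18, edgeR adjusted p = 0.583). MSX2 varied most between pairs, with log2 differences from -1.37 to 1.96, both in Nanog pairs, and a fitted value of 0.25 (standard error 0.25, edgeR adjusted p = 0.665).

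PAX3, the paralog of PAX7, was lower on the MO side in 6 of 8 pairs. It was at 11.7, 17.8, 22.2 and 12.2 CPM on the Nanog MO sides, against 12.0, 30.4, 25.1 and 21.6 CPM, and its fitted value was -0.17 (standard error 0.15, edgeR adjusted p = 0.623). The paralogs thus differed in their calls, but the difference between them was not tested. DLX5, a homeobox gene of the non-neural side of the border, was lower in 6 of 8 pairs, with a median log2 difference of -0.073 and a fitted value of -0.094 (standard error 0.099, edgeR adjusted p = 0.684). GBX2 was higher in 5 of 8 pairs, with log2 differences from -0.55 to 0.52 and a fitted value of 0.028 (standard error 0.13, edgeR adjusted p = 0.943).

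**Figure D4:**
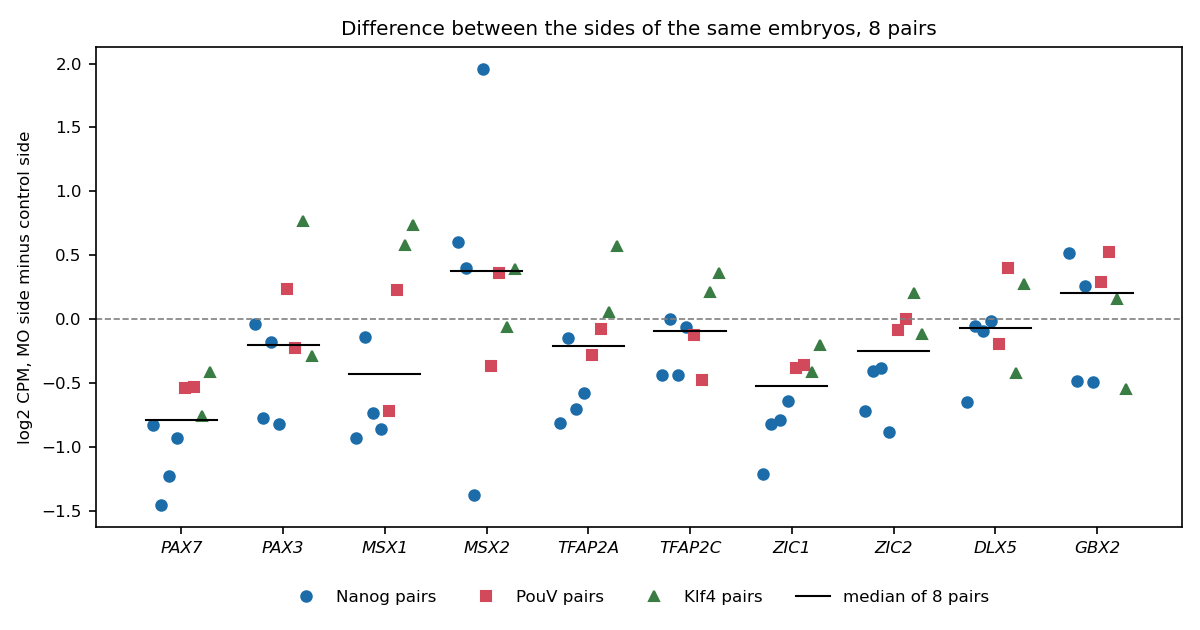
Difference in log2 CPM between the MO side and the control side (vertical axis) for each border gene in 8 pairs, 4 Nanog, 2 PouV and 2 Klf4, with the median as a line. All 8 points of PAX7 and of ZIC1 are below 0, and the points of MSX1 and TFAP2A are below 0 in the Nanog pairs and above 0 in the Klf4 pairs.

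The largest differences of PAX7 and ZIC1 within a pair were in the Nanog experiment. There 8 of the 10 border genes were lower on the MO side in all 4 pairs, MSX2 and GBX2 being the others, and none was higher in all 4. Of all genes, 11.9% were lower and 11.4% higher in all 4 Nanog pairs. Some log2 differences of the 8 were close to 0. DLX5 had -0.052, -0.094 and -0.019 in Nanog pairs 2, 3 and 4. TFAP2C had -0.0017 and -0.060 in pairs 2 and 4, and PAX3 had -0.036 in pair 1. The median log2 difference of the 10 genes was -0.68, -0.28, -0.57 and -0.61 in the 4 Nanog pairs, beside -0.015, 0.014, -0.0072 and -0.018 for all genes. It was -0.24 and -0.037 in the PouV pairs and 0.10 and 0.080 in the Klf4 pairs. MSX1, TFAP2A, ZIC1 and ZIC2 were lower in every Nanog MO sample than in every Nanog control, as were 2.11% of all genes, and 2.33% were higher. For TFAP2A the nearest values were almost equal, at 117.8 CPM in Nanog MO replicate 2 and 118.2 CPM in Nanog control replicate 3.

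The pairing was also entered as a replicate block in the model of all 19 samples with 1 factor of unwanted variation. The block sets Nanog MO against the control sides of its own pairs, so that contrast is no longer one against all controls. PAX7 (-1.24, standard error 0.16, edgeR adjusted p = 0.0154) and ZIC1 (-0.98, standard error 0.14, edgeR adjusted p = 0.0301) were then called lower, as were 0.0316% of all genes. A fit of the 4 Nanog pairs alone, chosen after seeing the data, called 5 border genes, all lower: PAX7 (-1.10), ZIC1 (-0.86), MSX1 (-0.66), ZIC2 (-0.59) and TFAP2A (-0.56), with edgeR adjusted p from 0.00335 to 0.0376. In that fit 0.774% of all genes were called lower. With the 4 PouV and Klf4 pairs alone, edgeR called 0 border genes and 0 of all genes. PAX7 then had -0.56 (standard error 0.12, unadjusted p = 0.00103, edgeR adjusted p = 0.542) and ZIC1 -0.34 (standard error 0.12, unadjusted p = 0.0177, edgeR adjusted p = 0.683).

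After PouV MO, 4 of the 10 genes were lower in both pairs (PAX7, TFAP2A, TFAP2C and ZIC1) and 1, GBX2, was higher in both, beside 28.1% and 26.1% of all genes. TFAP2A and ZIC1 were lower in every PouV MO sample than in both PouV controls (6.81% of all genes, with 6.88% higher). After Klf4 MO, 2 were lower in both pairs (PAX7 and ZIC1) and 3 higher (MSX1, TFAP2A and TFAP2C), beside 28.5% and 27.9%. MSX1 was higher in every Klf4 MO sample than in both Klf4 controls (5.69% of all genes, with 5.33% lower). With 2 pairs a gene often takes the same sign in both, and these counts were not far from the shares of all genes.

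The third question was whether the effects differed between the experiments, each measured against the control sides of that same experiment. With edgeR no border gene and no other gene (0%) was called in any of the 3 contrasts. DESeq2 called no border gene either, among 3 genes called for PouV minus Nanog, 10 for Klf4 minus Nanog and 0 for PouV minus Klf4. At an unadjusted p under 0.05 there were 4 of the 10 border genes in the contrast of Klf4 with Nanog, 1 in that of PouV with Klf4 and 0 in that of PouV with Nanog, beside 2.93%, 2.66% and 2.51% of all genes. The Klf4 effect minus the Nanog effect was 0.92 for ZIC2 (standard error 0.23, unadjusted p = 0.00067, edgeR adjusted p = 0.795) and 0.82 for TFAP2A (standard error 0.25, unadjusted p = 0.00436). It was 1.67 for MSX1 (standard error 0.61, unadjusted p = 0.0138) and 1.13 for ZIC1 (standard error 0.45, unadjusted p = 0.0223). For TFAP2A, MSX1 and ZIC1 edgeR's adjusted p rounded to 1. For PAX7 the same difference was 1.11 (standard error 0.53, unadjusted p = 0.0501). PAX7 was lower by 1.06 on the log2 scale after Nanog MO than in the Nanog controls, while all 4 Klf4 MO samples against the 2 Klf4 controls gave 0.050. These contrasts take no account of the pairs. With the replicate block no border gene was called either, but the Klf4 effect minus the Nanog effect was 0.52 for PAX7 (unadjusted p = 0.0277) and 0.55 for ZIC1 (unadjusted p = 0.0173). It was 1.33 for MSX1, 0.88 for TFAP2A and 0.64 for ZIC2, with edgeR adjusted p of at least 0.255. With the block the PouV effect minus the Nanog effect was 0.57 for PAX7 (unadjusted p = 0.0175, edgeR adjusted p = 0.536) and 0.49 for ZIC1 (unadjusted p = 0.0225, edgeR adjusted p = 0.536), and the PouV effect minus the Klf4 effect of TFAP2A was -0.49 (unadjusted p = 0.0536).

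The genes around the border were examined by lists compiled by role. Of 18 further border genes, 1 was called over the 8 pairs, TFAP2B, an AP-2 factor of the early crest, with -1.48 (standard error 0.20, edgeR adjusted p = 0.00424) and a lower level in 8 of 8 pairs. TFAP2B averaged only 4.01 CPM. The most abundant genes of that list, SALL4 and SALL1, were lower in 8 and 6 of 8 pairs, with median log2 differences of -0.14 and -0.050. Of 14 neural crest specifiers 2 were called, both lower: SOX9 (-0.54, edgeR adjusted p = 0.0147) and SOX8 (-0.47, edgeR adjusted p = 0.0382), SoxE factors of the crest that were lower in 8 of 8 pairs. ID2 and MYCN, the most abundant crest genes listed, were lower in 5 and 6 of 8 pairs and were not called. The crest list did not move as a whole: the fitted change was above 0 for 5 of the 14 genes and below 0 for 9. At an unadjusted p under 0.05 by edgeR there were 3 higher and 3 lower, beside 1360 higher and 1517 lower of all 18857 genes.

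Of 17 neural plate genes 5 were called over the pairs, all lower. They were EN1 (-1.39, edgeR adjusted p = 0.00808), a midbrain-hindbrain gene, PAX6 (-0.99, edgeR adjusted p = 0.00918), a factor of the eye and forebrain, SOX1 (-0.74, edgeR adjusted p = 0.0337) and SOX2 (-0.42, edgeR adjusted p = 0.027), SoxB1 factors of neural progenitors, and LMO1 (-0.53, edgeR adjusted p = 0.0396). The median of the 17 was -0.30, beside -0.20 for the 10 border genes and 0.0058 for all genes. MSI1 and OTX2, the most abundant neural plate genes, were each lower in 7 of 8 pairs. EN1 and SOX2 were lower in 8 of 8 pairs, as PAX7 and ZIC1 were, and SOX1, PAX6 and LMO1 in 7 of 8. EN1 averaged only 3.81 CPM. The fitted change was below 0 for 14 of the 17 and above 0 for 3. The summed level of the 17 was 1330 to 1582 CPM after Nanog MO, 1041 to 1460 after PouV MO and 813 to 1071 after Klf4 MO. It was 1035 to 2086 CPM in the 8 controls, which differed by experiment. The Nanog controls had 1459 to 2086 CPM, the PouV controls 1423 and 1539, and the Klf4 controls 1178 and 1035.

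On the non-neural side 1 of 15 genes was called. EPCAM, an epithelial adhesion molecule, was higher in 8 of 8 pairs (0.70, standard error 0.068, edgeR adjusted p = 0.00109), and was also called against all controls after Nanog MO (0.57, edgeR adjusted p = 0.0353) and PouV MO (0.78, edgeR adjusted p = 0.00452). KRT18, a keratin of simple epithelia, was higher in 7 of 8 pairs and was not called. In the other direction, OTX1, a head gene of the placodal region, and TP63, a factor of the epidermis, were lower in 8 of 8 pairs, with log2 fold changes of -0.28 (edgeR adjusted p = 0.0653) and -0.24 (edgeR adjusted p = 0.196), and were not called. These genes, OTX1 and TP63, were picked with their values known. The median of the 15 was 0.059, and at an unadjusted p under 0.05 there were 4 higher and 2 lower. Of all 18857 genes, 1360 were higher and 1517 lower at that unadjusted p by edgeR. The summed level of the 15 was 1222 to 1741 CPM after Nanog MO, 1322 to 2138 after PouV MO and 1359 to 1450 after Klf4 MO. It was 924 to 1449 CPM in the 8 controls. The Nanog controls had 924 to 1413 CPM, the PouV controls 1249 and 1449, and the Klf4 controls 1318 and 1184. FOXI1 was at 0 in at least 1 sample. None of 12 mesoderm genes was called by edgeR, with 3 higher at an unadjusted p under 0.05, and FOXC2 and HAND1, the most abundant, were each higher in 6 of 8 pairs. Of 10 endoderm genes 1 was called, APOA1, an apolipoprotein of the early endoderm, with 0.64 (edgeR adjusted p = 0.0335), while GATA5, the next most abundant, was higher in 4 of 8 pairs. The fitted change was above 0 for all 10 endoderm genes, beside 9733 of all 18857 genes, with a median of 0.53. At an unadjusted p under 0.05 by edgeR 4 of them were higher and 0 lower.

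The summed level of each list was also compared between the sides. The sum of the neural plate genes was lower on the MO side in 8 of 8 pairs (median log2 ratio -0.16), and so was that of the further border genes (-0.12). The sums of the non-neural (0.33) and mesoderm (0.26) lists were higher in 8 of 8 pairs, and that of the endoderm list (0.43) in 7 of 8. Abundant genes weigh most in each sum, so these counts are not shifts of every gene listed. EPCAM and KRT18, at means of 335 and 330.3 CPM over the 19 samples, were the largest terms of the non-neural sum. The largest were SALL4 and SALL1 (820 and 477 CPM) in the further border sum and MSI1 and OTX2 (324 and 195 CPM) in the neural plate sum. They were FOXC2 and HAND1 (145 and 67.6 CPM) in the mesoderm sum and APOA1 and GATA5 (318 and 226 CPM) in the endoderm sum. The 10 border genes summed lower in 6 of 8 pairs (-0.19), and so did the 14 neural crest specifiers (-0.084, from -0.30 to 0.17). Some ratios counted above were close to 0. The nearest was -0.0034 for the neural plate, -0.014 for the further border and 0.0033 for the mesoderm list. The part of tissue makeup, or of where each pool was cut, in the lower PAX7 and ZIC1 was not tested.

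**Figure D5:**
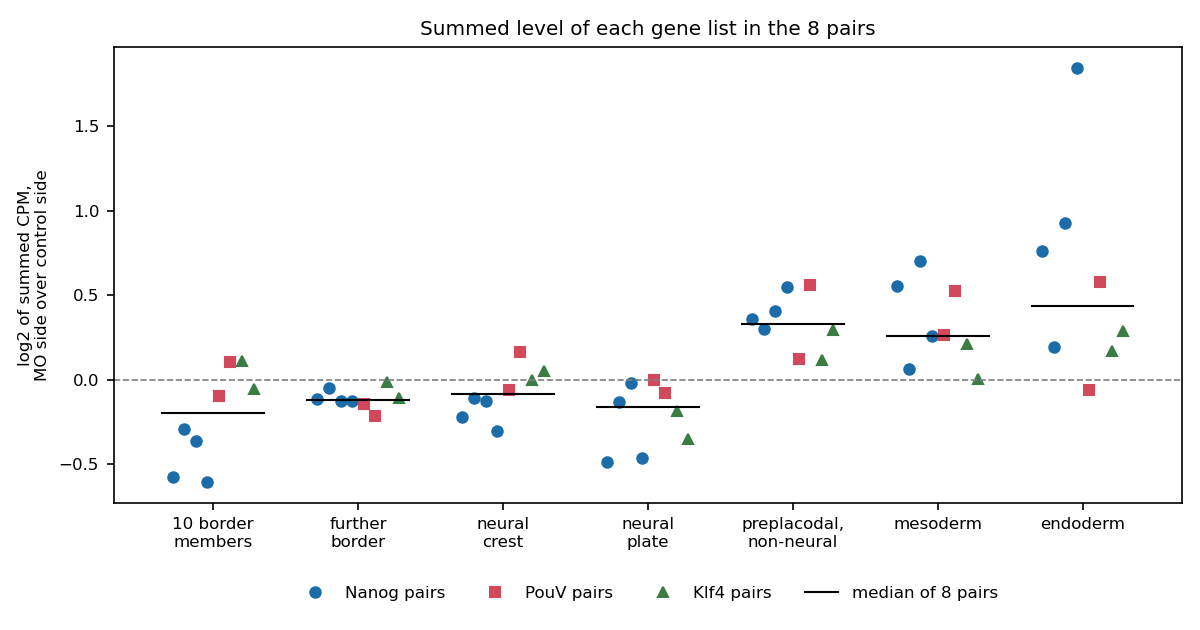
log2 of the summed CPM of each gene list on the MO side over the control side (vertical axis) in 8 pairs, with the median as a line. The neural plate and further border lists are below 0 and the non-neural and mesoderm lists above 0 in all 8 pairs, and the 10 border genes are below 0 in 6.

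The border genes varied together to different degrees. Pearson correlations of log2 CPM between 2 border genes were taken over the 19 samples, with each experiment centred on its own mean. Their median was 0.18 over 45 gene pairs, with 29 above 0 and 9 above 0.5. Other sets of genes were not correlated in this way, so there is no reference for these values. These are descriptions over samples that share embryos and treatments. PAX3 and GBX2 (r = 0.74) and ZIC1 and ZIC2 (r = 0.74) were closest, followed by TFAP2A and ZIC1 (0.67), MSX2 and TFAP2C (0.66) and PAX7 and ZIC2 (0.64). PAX7 and PAX3 had only 0.31, and DLX5 ran against GBX2 (-0.60) and PAX3 (-0.56).

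Among 11781 other genes with a symbol and a mean of at least 1 CPM, those most like PAX7 were KLHL35 (r = 0.88), MOXD1 (0.84), a monooxygenase related to dopamine beta-hydroxylase, and FAM181A (0.82). The closest gene was GRM3 (0.85), a glutamate receptor, for ZIC1 and MAFA (0.86) for ZIC2. It was FGF3 (0.94), an FGF ligand of the hindbrain, for PAX3 and IGFALS (0.87) for GBX2. For MSX1 it was CYTL1 (0.87) and for MSX2 NKX2-5 (0.92), a factor of the heart. The closest gene was NET1 (0.73) for TFAP2A, S1PR1 (0.82) for TFAP2C and DACH1 (0.87), of the placodes and limbs, for DLX5. Each r is the highest of a large number of genes over 19 samples and is given as a description.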

How the data were processed

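RNA sequencing was analysed in 19 samples. Per the labels and the study's methods, reads were aligned with STAR 2.7.2a to GRCg6a and counted per gene. The authors deposited raw counts of 24356 genes, the same counts after their filter, and a table of signal values (CPM scaled by TMM). That table was equal to the CPM computed here. It gave the names of all 10 members and of 12495 of the 18996 genes tested. A RefSeq gene list named 1831 more, and 4670 had no name. MO sequences, coordinates and protein or promoter sequences were not used here.

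A gene was kept where any sample had over 5 reads for it. Each knockdown was compared with all 8 controls in edgeR 4.0.16 (R 4.3.3; TMM, quasi-likelihood test, Benjamini-Hochberg adjustment over all genes, calls at 0.05), in 1 model with 4 groups and 1 factor of unwanted variation (RUVs, written out from its algorithm, from the controls and 1000 genes of lowest coefficient of variation). The study's text gives no number of factors. The sides were compared over 8 pairs with the pair as a block and no factor, and effects between experiments in a model with 6 groups. Values of single samples are TMM-scaled CPM, with a prior count of 2 on the log2 scale, and standard errors were derived from the fold change and the F statistic. The scripts were tested on simulated data. Pairing was taken from the bilateral design and from equal replicate numbers, which is an assumption. The deviations of paired samples from the means of their treatment, with all 8 controls as 1 group, correlated from -0.089 (Nanog 4) to 0.69, with 7 of 8 over 0.1. The control deviations also carry the differences between experiments, and unmatched samples were not compared. These correlations therefore do not test the pairing.

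Genes named were the members, the targeted genes, and from each further list the called genes and the 2 of highest mean CPM, plus the genes most correlated with each member (3 for PAX7; unnamed LOC genes were left out). The border, crest, neural plate, non-neural, mesoderm and endoderm lists were compiled by hand, and the members and lists were chosen with earlier results of these data known. Alternatives were RLE size factors, DESeq2 1.42.0, other filters, 0 or 2 factors, own-experiment controls, the replicate block and each sample left out. No 2 replicates were within sampling noise of each other. PouV MO replicate 3, the MO side of PouV pair 3, differed most from its group. Its chi-squared per gene, which rises with differences beyond read sampling, was 165 and 178 against PouV MO replicates 1 and 4. Between replicates 1 and 4 it was 41.2. Nothing says that replicates came from separate layings or days, so p-values measure the spread between these pools.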

Additional observations from a re-analysis of the deposited data

Results flagged for a closer look

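The 10 border genes were scanned in Nanog MO, Klf4 MO and control MO for a sample far from the others. The 3 PouV MO samples were not examined in this way. Of the 30 groups of values examined, 1 stood out. GBX2 was at 269 CPM in Klf4 control replicate 3, while the other 7 controls lay between 70.9 and 153 CPM. The gap to the nearest control was 0.587 of the whole range. By chance about 1 group in 20 would stand out in this way.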

How the results depend on the processing

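PAX7 and ZIC1 were called lower over the 8 pairs with RLE size factors, with DESeq2 and without a filter on low counts, with edgeR or DESeq2 adjusted p of at most 0.0133. Genes called in all numbered 294, 792 and 375 in these fits, in that order. Without the pair as a block and with the experiment as a term, 0 border genes were called, among 24 genes called in all. PAX7 then had -0.81 (edgeR adjusted p = 0.106) and ZIC1 -0.61 (edgeR adjusted p = 0.0889), and GBX2 turned to -0.012. The Nanog pairs alone gave 5 called border genes, among 312 genes called in all, and GBX2 at -0.045. The PouV and Klf4 pairs alone gave 0 of all genes. PAX3 (0.12), MSX1 (0.22), TFAP2A (0.066), ZIC2 (0.00011) and DLX5 (0.015) were then above 0. Both were chosen after seeing the data. With each pair left out in turn, 1 to 2 border genes were called, among 73 to 275 genes called in all, and GBX2 ran from -0.045 to 0.12.

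In the models of all 19 samples, with the replicate block 2 border genes were called after Nanog MO, among 46 genes called in all. With the block and no RUVs factor 4 were called (PAX7, ZIC1, ZIC2 and TFAP2A), among 271 of the 18996 genes tested. The block sets each knockdown against the control sides of its own pairs, so the fits with it are not against all controls. With no RUVs factor and no block, the Klf4 comparison called 440 genes and no border gene, against 3 genes with 1 factor. ZIC1 after Klf4 MO then had -1.67 (edgeR adjusted p = 0.0602), against -0.52 with 1 factor. The number of factors therefore matters for that comparison. Among values that were not called, signs turned as follows, and the cause was not tested. With no RUVs factor they turned for TFAP2A (-0.014) after PouV MO, and for MSX1 (-0.10) and ZIC2 (-0.29) after Klf4 MO, and with 2 factors for TFAP2C (-0.019) after Nanog MO. With the controls of each experiment alone they turned for TFAP2C (-0.21) after Nanog MO, for PAX3 (0.59), TFAP2A (-0.34) and DLX5 (-0.17) after PouV MO, and for PAX7 (0.050), TFAP2A (0.27), TFAP2C (0.21), ZIC1 (0.28) and GBX2 (-0.19) after Klf4 MO. With the replicate block they turned for MSX2 (-0.38), TFAP2C (-0.29) and GBX2 (0.14) after Nanog MO, for PAX3 (0.10), MSX1 (-0.19), MSX2 (-0.37), TFAP2A (-0.17) and ZIC2 (0.034) after PouV MO, and for TFAP2A (0.29), TFAP2C (0.34), ZIC2 (-0.12), DLX5 (0.043) and GBX2 (-0.39) after Klf4 MO. In the PouV effect minus the Klf4 effect, PAX7 turned with the block (0.048). With the block and no factor they turned for TFAP2C (-0.23) after Nanog MO, for PAX3 (0.010), MSX1 (-0.23) and TFAP2A (-0.18) after PouV MO, and for TFAP2A (0.31), TFAP2C (0.29) and GBX2 (-0.20) after Klf4 MO. The block changed no other call.

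With each sample left out in turn, 0 to 2 border genes were called after Klf4 MO and 0 after the other knockdowns. The 2 were ZIC1 and DLX5 without Klf4 control replicate 3, among 756 genes called in all. The sign turned within the range for TFAP2C (-0.19 to 0.22) and MSX2 (-0.079 to 0.59) after Nanog MO, and for TFAP2A (-0.084 to 0.16), PAX3 (-0.65 to 0.20), MSX1 (-0.26 to 0.69) and MSX2 (-0.42 to 0.84) after PouV MO. It also turned for ZIC2 (-0.13 to 0.23), GBX2 (-0.093 to 0.47), MSX2 (-0.047 to 0.24), PAX7 (-0.66 to 0.0045) and TFAP2A (-0.32 to 0.072) after Klf4 MO. In the differences between experiments it turned for ZIC1 in PouV minus Nanog (-0.025 to 0.48) and for PAX7 in PouV minus Klf4 (-0.59 to 0.047). The members had 124 reads or more in each sample, and the PouV and Klf4 experiments had 2 controls each.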
